A study of Mus musculus with 75 samples.

Results

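High-fat diet moved 1 gene past the threshold in the epididymal fat of mice without the cannabinoid receptor CB1 and 4689 genes in that of their wild-type littermates, and the genes whose diet response differed between the genotypes are described here. The contrast is the interaction of genotype and diet: the effect of the diet in knockouts (high-fat minus chow) minus the effect of the diet in wild-type mice (high-fat minus chow), in mice that received vehicle. It uses 18 fat arrays of the 75 arrays in the series, chosen by their titles and not by their values. A negative interaction means that the diet effect was more negative, or less positive, in knockouts than in wild-type mice. A positive interaction means the reverse.

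CB1, encoded by Cnr1, is a G-protein-coupled receptor for endocannabinoids, lipid messengers that brain and peripheral tissues make on demand. Its activation in the brain promotes feeding, and mice without it are known to gain less weight on a high-fat diet. Epididymal fat is the visceral depot in which obesity is known to bring in macrophages, which gather around dying adipocytes in crown-like structures, take up lipid and proliferate in place.

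All mice were males on a C57BL/6 background. Homozygous CB1 knockouts lacked the receptor in every tissue, and the controls were their littermates. Feeding began at 2 months of age and lasted 14 weeks. The high-fat diet drew 59.4% of its energy from fat and the chow 13%. The 4 groups were high-fat knockout (3 arrays), chow knockout (5), high-fat wild-type (5) and chow wild-type (5), and each mouse got methylcellulose vehicle by gavage on 2 days before tissue was taken in the morning. The receptor is missing throughout life and in the brain as well as in fat, so the contrast cannot separate fat-borne from systemic loss. Body weight was recorded by the study but not used here, so diet and weight gain cannot be told apart. Each array is labelled as a separate numbered sample, and p-values measure the spread between these samples.

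Each array is a 1-colour hybridisation of total RNA, and levels are given as log2 of the intensity the authors deposited. Median intensities of the 18 arrays lay between 45.2 and 48.04. The number of arrays limits the precision, above all the 3 in the high-fat knockout group: the median standard error over genes was 0.17 log2 units for the interaction, 0.13 for the diet effect in knockouts and 0.11 for that in wild-type mice. Adipocyte markers were bright on every array. Adiponectin (Adipoq), a hormone made by fat cells, read 13.94 to 14.01 on the high-fat knockout arrays and 13.80 to 13.93 on the chow knockout arrays, against 13.53 to 13.93 on the high-fat wild-type arrays and 13.86 to 14.04 on the chow wild-type arrays. Summed markers of epididymis and testis, which lie beside this depot, reached 8811 intensity units on high-fat wild-type array 3, against at most 2602 on the other 17 arrays. That array also had the lowest macrophage levels of its group, and without it the number of genes with an interaction was larger (1688).

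Both probe sets of Cnr1 gave signal in knockouts. The brighter averaged 6.38 ± 0.47 log2 units in high-fat knockout fat (SD, n = 3), 6.91 ± 0.43 in chow knockout fat, 6.18 ± 0.27 in high-fat wild-type fat and 7.24 ± 0.56 in chow wild-type fat (SD, n = 5 each). Its interaction of 0.53 ± 0.49 (SE) did not pass the threshold in limma (adjusted p = 0.623 over all probe sets), nor did that of the dimmer set, at 0.13 ± 0.17 (adjusted p = 0.756). Whether either probe set lies in the deleted part of the gene is not given in the sources used here, so these levels check nothing about the genotype labels.

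Of 19147 genes tested with limma, 1213 (6.34%) had an interaction at a Benjamini-Hochberg adjusted p under 0.05, 550 of them positive (2.87%) and 663 negative (3.46%). The diet effect itself passed in 1 gene of knockout fat (0.00522%) and in 4689 genes of wild-type fat (24.5%). In knockout fat 1353 genes reached an unadjusted p under 0.05, where chance gives 957. The gene that passed was Pth1r, the parathyroid hormone receptor: it read 8.23, 8.21 and 8.17 on the high-fat knockout arrays and between 8.83 and 9.43 on the chow knockout arrays, and it fell with the diet in wild-type fat as well, by 0.80 ± 0.14 (adjusted p = 6.6e-05). Knockouts differed from wild-type mice in 3048 genes on the high-fat diet (15.9%) and in 11 on chow (0.0575%). The interaction count depended on single arrays of the smallest group: it was 766 without high-fat knockout array 42 and 713 without array 44, of which 655 were among the 1213.

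The diet effect in wild-type fat passed the threshold in 1162 of the 1213 genes with an interaction. In knockouts it had the opposite sign in 786 (8646 of all 19147 genes). It had the same sign but a smaller size in 427 (7168 of all genes). The same sign and a larger size were found in 0 (3333 of all genes). The knockout effect was under 0.5 log2 units in 1162, as it was in 18830 of all 19147 genes. The genes with a negative interaction had a median diet effect of -0.07 in knockouts and 0.91 in wild-type mice, and those with a positive interaction had 0.06 in knockouts and -0.70 in wild-type mice. The interaction is built from these same values, so these counts and medians describe the called genes and support nothing. The genotypes stood further apart on the high-fat diet than on chow in 1144 of the 1213, against 12495 of all 19147 genes.

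**Figure D1:**
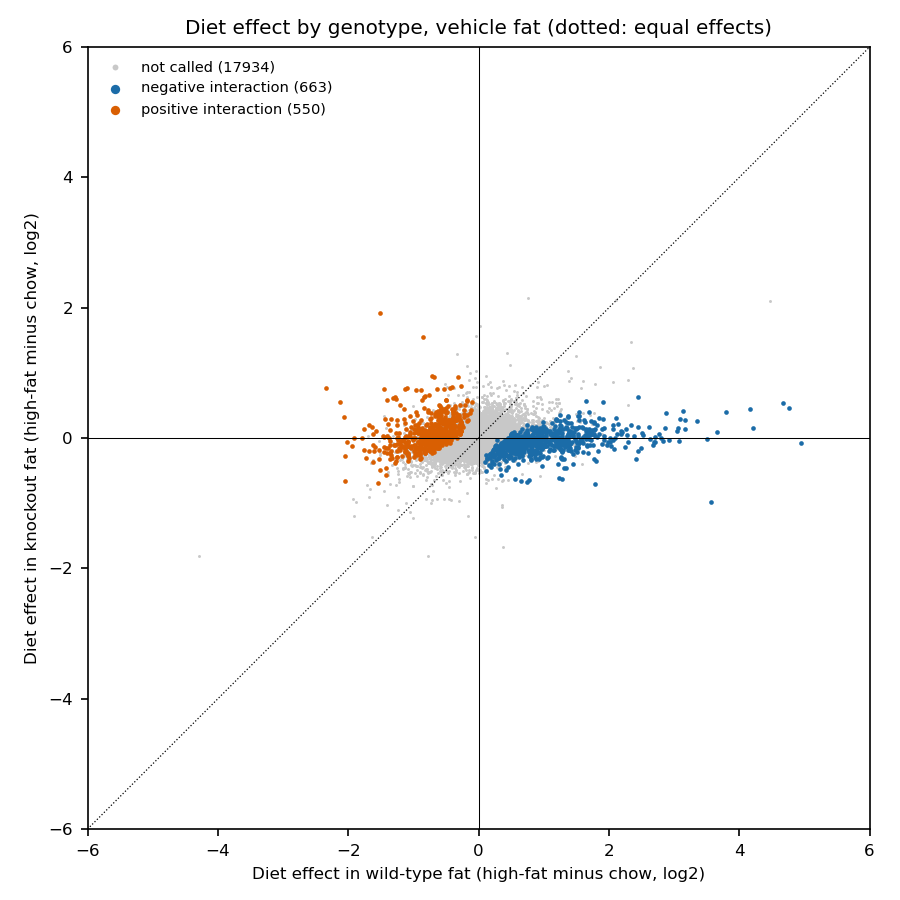
Diet effect (high-fat minus chow, log2) of each of 19147 genes in knockout fat, on the vertical axis, against that in wild-type fat, on the horizontal axis. Coloured points are the 663 genes with a negative and the 550 with a positive interaction, and they lie along the horizontal axis: 1162 of the 1213 are within 0.5 log2 units of 0 in knockouts, as are 18830 of all 19147.

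The wild-type diet response was not wholly missing in knockouts. Of the 4689 genes that changed with diet in wild-type fat, 3056 (65.2%) had the same sign in knockout fat, against 54.8% of all genes. Their median size was 0.48 in wild-type mice, and the median knockout effect, counted in the wild-type direction, was 0.06. Across these genes the 2 diet effects correlated with Pearson's r = 0.354, against 0.216 across all genes. Both describe genes that share arrays and are not independent. Genes that the diet lowered in wild-type fat (12.4% of all genes) kept their sign in knockouts in 71.9% of cases, and genes that it raised there (12.1% of all genes) did so in 58.3%.

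Of 22 measured markers of macrophages, 18 had a negative interaction and 0 a positive one, against 3.46% of all genes with a negative interaction, and the median over the list was -1.35 (-0.03 over all genes). The median diet effect of these 22 markers was -0.06 in knockouts and 1.21 in wild-type mice, where 20 were called as higher, against 12.1% of all genes. Mpeg1, which encodes the pore-forming protein perforin-2 of macrophages, read 9.27, 9.06 and 8.86 on the high-fat knockout arrays and 9.52, 8.65, 9.28, 8.77 and 9.37 on the chow knockout arrays, against 12.53, 10.66, 11.67, 11.94 and 11.94 on the high-fat wild-type arrays and 9.17, 9.53, 9.44, 8.66 and 8.49 on the chow wild-type arrays. Every high-fat wild-type array was above all 13 others, which overlapped among themselves. Its interaction was -2.74 ± 0.51 (adjusted p = 0.00286), from a diet effect of -0.06 ± 0.39 in knockouts and 2.69 ± 0.33, or 6.44-fold, in wild-type mice.

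The macrophage mannose receptor Mrc1 had an interaction of -0.87 ± 0.16 (adjusted p = 0.00227). It read between 9.66 and 9.88 on the high-fat knockout arrays and between 9.72 and 9.95 on the chow knockout arrays, against 10.51 to 10.85 on the high-fat wild-type arrays and 9.77 to 9.94 on the chow wild-type arrays, so only the high-fat wild-type group stood apart. Aif1, the cytoskeletal protein known as IBA1, had -1.39 ± 0.26 (adjusted p = 0.00269), and Ptprc, which encodes the leukocyte surface phosphatase CD45, had -1.60 ± 0.30 (adjusted p = 0.00311). The complement genes C1qa, C1qb and C1qc, named after their values were seen, had interactions of -0.81, -1.03 and -0.97, all past the threshold. The 4 markers without a call, named to complete the list, were Csf1r at -0.58, Itgam at -0.87, Cd163 at 0.27 and Lyz2 at 0.03, of which Lyz2 was dim on all 18 arrays, at 2.89 to 3.28. In bulk tissue, fewer cells of a type and less RNA per cell cannot be told apart.

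Markers of resident macrophages, the population that lives in lean fat and is marked by scavenger receptors, had 1 call among 13, Mrc1, which is on both lists, against 6.34% of all genes. The median interaction was -0.09, and 7 of the 13 reached an unadjusted p under 0.05, against 3927 of all 19147 genes. Next in order of p came Il10 at -0.45, Clec10a at -0.47 and Fcgrt at 0.35, none of them past the threshold. The difference between the 2 lists was not tested. The summed intensity of the resident markers ran from 32772 to 35029 in high-fat knockout fat and 31003 to 35694 in chow knockout fat, against 32151 to 35561 in high-fat wild-type fat and 30587 to 35439 in chow wild-type fat. The summed macrophage list ran from 20613 to 21733 in high-fat knockout fat and 18391 to 25556 in chow knockout fat, against 35516 to 79232 in high-fat wild-type fat and 18572 to 26575 in chow wild-type fat.

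**Figure D2:**
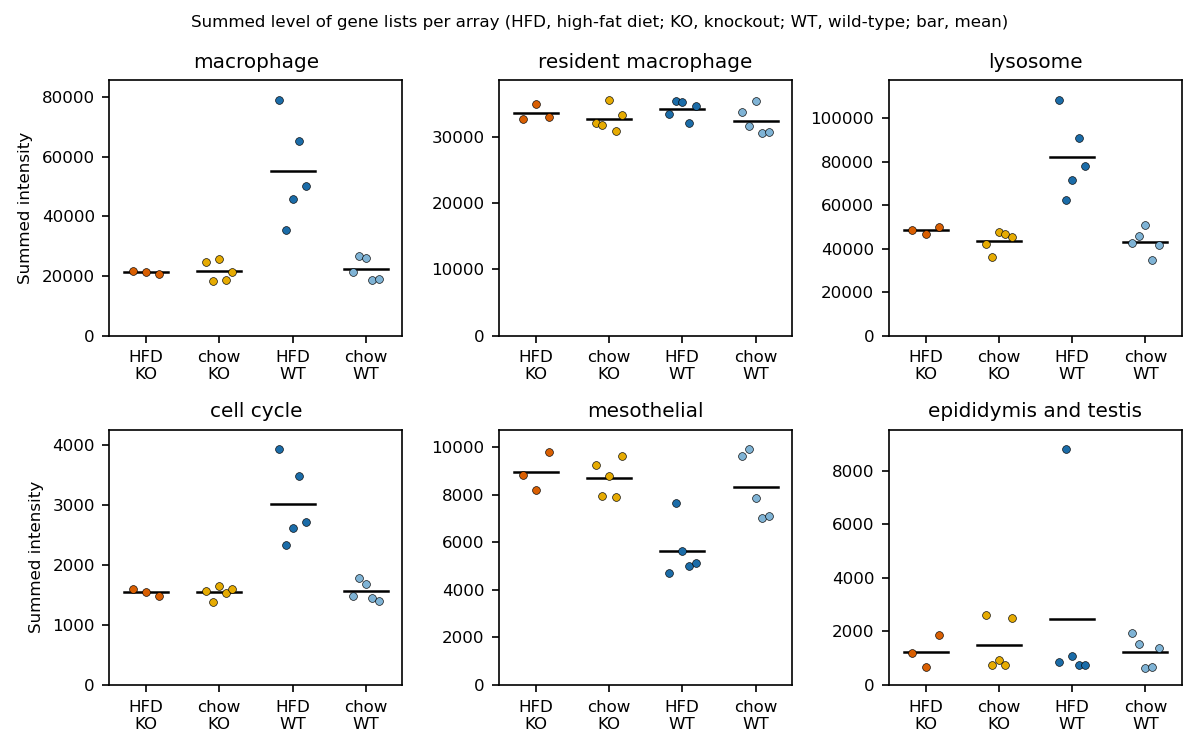
Summed intensity (linear units) of 6 gene lists on each of the 18 vehicle arrays, with groups in the order high-fat knockout, chow knockout, high-fat wild-type, chow wild-type, and a bar at each group's mean. High-fat wild-type arrays stand above the rest for macrophage, lysosome and cell cycle genes, overlap them for resident macrophage genes, and 4 of the 5 lie below them for mesothelial genes, while 1 is far above for epididymis and testis genes.

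Genes of lipid-associated macrophages, the state that macrophages take on around fat cells in obesity, came next. Of 15 measured, 11 were negative and 0 positive (median -1.76), against 3.46% of all genes with a negative interaction. The median diet effect of the 15 was 0.15 in knockouts and 1.78 in wild-type mice. Trem2, the lipid receptor that defines this state, read 7.12, 6.50 and 7.14 on the high-fat knockout arrays and 7.08, 6.57, 7.27, 6.93 and 6.82 on the chow knockout arrays, against 12.13, 9.30, 10.30, 11.59 and 10.87 on the high-fat wild-type arrays and 7.22, 8.09, 7.83, 6.86 and 6.70 on the chow wild-type arrays. The high-fat wild-type arrays did not overlap any other group, and among themselves they ran from 9.30 to 12.13. The diet effect on Trem2 was -0.02 ± 0.54 log2 units in knockout fat and an 11.3-fold rise in wild-type fat, which gave an interaction of -3.52 ± 0.72 (adjusted p = 0.00453).

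Atp6v0d2, a subunit of the proton pump that acidifies lysosomes, had the third most negative interaction of all genes, -4.31 ± 0.84 (adjusted p = 0.00348). On the high-fat knockout arrays it read 4.72, 4.63 and 4.56 and on the chow knockout arrays 3.84 to 4.53, against 7.87 to 10.87 on the high-fat wild-type arrays and 4.27 to 5.15 on the chow wild-type arrays. It is also on the lysosome list. Of its 19 measured genes, 11 had a negative interaction and 0 a positive one (median -0.86), against 3.46% of all genes with a negative one. Ctsk, a lysosomal cysteine protease, had -2.45 ± 0.51 (adjusted p = 0.00497), with diet effects of 0.17 in knockouts and 2.62 in wild-type mice. Lipa, the acid lipase that frees cholesterol and fatty acids in lysosomes, had -1.75 ± 0.39 (adjusted p = 0.00728), and the asparagine-cutting protease Lgmn had -1.56 ± 0.36 (adjusted p = 0.00889). The integrin Itgax, known as CD11c and present on the macrophage list too, had -2.90 ± 0.62 (adjusted p = 0.00571). The 8 lysosome genes without a call all had negative values, from -0.85 to -0.03.

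For macrophage and lysosome genes the RefSeq promoter table (GRCm38.p6) gave the 250 bases upstream of the start for 14 of the 18 called macrophage markers, 9 of the 11 called lipid-associated genes and 9 of the 11 called lysosome genes. A gene with several listed starts counts once, with a match at any of them. These stretches were searched on both strands for GAGGAAGT, a form of the site bound by PU.1, the master regulator of macrophages, and for TCACGTGA, a form of the CLEAR element bound by TFEB, a regulator of lysosome genes, which contains the shorter E-box CACGTG. The 3 promoters below are shown because a called member carries one of these motifs, printed on the gene's strand with the motif, or its reverse complement, in capitals. They lie at chr4:136892915-136893164 on the minus strand for C1qc, chr9:7344147-7344396 on the plus strand for Mmp12 and chr16:44139260-44139509 on the minus strand for Atp6v1a, a subunit of the lysosomal proton pump.
C1qc: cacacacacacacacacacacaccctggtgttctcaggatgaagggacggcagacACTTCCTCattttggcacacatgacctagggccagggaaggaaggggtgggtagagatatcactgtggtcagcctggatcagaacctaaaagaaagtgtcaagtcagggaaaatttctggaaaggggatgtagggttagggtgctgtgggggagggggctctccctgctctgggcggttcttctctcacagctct
Mmp12: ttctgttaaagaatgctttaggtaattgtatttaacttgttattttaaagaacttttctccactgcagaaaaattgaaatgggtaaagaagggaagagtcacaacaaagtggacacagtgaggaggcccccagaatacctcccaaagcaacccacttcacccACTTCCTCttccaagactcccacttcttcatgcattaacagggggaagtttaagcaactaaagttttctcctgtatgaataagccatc
Atp6v1a: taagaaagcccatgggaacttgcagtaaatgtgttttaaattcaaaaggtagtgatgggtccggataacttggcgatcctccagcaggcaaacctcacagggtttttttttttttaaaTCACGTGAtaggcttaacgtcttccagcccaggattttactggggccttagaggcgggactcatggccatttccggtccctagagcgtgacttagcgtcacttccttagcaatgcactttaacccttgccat
The PU.1 form was found in 1 of 14 macrophage genes, C1qc, in 1 of 9 of the lipid-associated list, Mmp12, and in 0 of 9 lysosome genes, against 2.8% of the 15275 tested genes with an entry. The CLEAR form was found in 1 of 9 lysosome genes, Atp6v1a, against 1.2% of all. A match is a description of these letters and not a site in use, and most called members held none in this window.

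Of 26 chemokine, cytokine and receptor genes, 9 had a negative interaction and 0 a positive one (median -0.82), against 3.46% of all genes with a negative one. Ccl2, the chemokine that draws monocytes into tissue, read 8.39, 8.67 and 7.74 on the high-fat knockout arrays and 8.33, 8.21, 8.87, 8.33 and 8.45 on the chow knockout arrays, against 11.27, 11.81, 11.91, 10.53 and 10.91 on the high-fat wild-type arrays and 9.14, 10.44, 9.07, 8.99 and 8.43 on the chow wild-type arrays. All high-fat wild-type arrays were above the rest, although chow wild-type array 2, at 10.44, was close to the lowest of them, at 10.53. The interaction was -2.24 ± 0.52 (adjusted p = 0.00941). The acute-phase protein gene Saa3 had -2.71 ± 0.71 (adjusted p = 0.0181), the interleukin-1 receptor antagonist Il1rn -2.14 ± 0.57 (adjusted p = 0.0213) and the monocyte chemokine Ccl7 -2.09 ± 0.58 (adjusted p = 0.0266). The calls of Ccl7, Il1rn and Saa3 were lost in 3, 1 and 1 of the 18 fits that left out 1 array. Cytokines often measured in obese fat did not pass: Tnf had -0.38 and Il6 had -0.05, both named after their values were seen. Il6 was dim on all 18 arrays, at 3.17 to 3.76, so its value says little.

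Of 9 genes of MHC class II, which present peptides to T cells, 6 had a negative interaction (median -0.68), against 3.46% of all genes. The loading factor H2-DMb1 had -1.62 ± 0.31 (adjusted p = 0.00311), with no knockout or chow wild-type array above 8.33 and all high-fat wild-type arrays at 9.05 to 9.94. H2-Eb1 had -1.13 ± 0.25, the class II transactivator Ciita -0.67 and H2-Ob -0.68, each past the threshold. Lymphocyte lists were mixed. In the T and NK cell list 4 of 15 genes passed, all negative: Il7r, the interleukin-7 receptor, at -3.09 ± 0.63 (adjusted p = 0.00453), and 3 genes of natural killer cells, Nkg7 at -0.87, Ncr1 at -0.64 and Il2rb at -0.56. The T cell receptor chain Cd3e and the coreceptor Cd4, named after their values were seen, had -0.05 and -0.06. In the B cell list 4 of 11 passed, Cd22 at -1.91, Blnk at -2.13, Cd79b at -1.42 and Ms4a1 at -1.19, while the B cell receptor chain Cd79a, dim at 4.12 to 4.66 on all arrays, had -0.01. High-fat wild-type arrays were above all others for Cd22 and Blnk only. Ms4a1 read 5.19 to 5.92 on the chow knockout arrays and 4.82 to 5.79 on the high-fat wild-type arrays, and Cd79b 6.13 to 7.30 and 6.24 to 7.09. Those 2 groups also overlapped for H2-Ob and for the 3 natural killer cell genes Nkg7, Ncr1 and Il2rb. Over the B cell list the median knockout difference on chow was 0.30. Leaving out 1 array ended the call of Il2rb in 14 of 18 fits, of Ms4a1 in 7, and of Ciita, H2-Ob, Ncr1 and Cd79b in 1 each. Interferon-stimulated genes had 0 calls among 15 (1 at an unadjusted p under 0.05, which 3927 of all 19147 genes reached), and mast cell genes 0 of 8, with 0 at that p.

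Of 23 measured genes of the cell cycle, 15 had a negative interaction and 0 a positive one, against 3.46% of all genes with a negative one. All 23 values were negative (median -0.82). The diet effect had a median of 0.02 in knockouts and 0.81 in wild-type mice, where 21 were called as higher, against 12.1% of all genes. Tk1, the thymidine kinase made in S phase, read 6.67, 6.51 and 6.44 on the high-fat knockout arrays and 6.50, 6.26, 6.25, 6.45 and 6.42 on the chow knockout arrays, against 8.57, 7.31, 7.68, 8.23 and 7.95 on the high-fat wild-type arrays and 6.34, 6.63, 6.47, 6.45 and 6.12 on the chow wild-type arrays. All other arrays lay between 6.12 and 6.67, below every high-fat wild-type array. Its interaction was -1.39 ± 0.29 (adjusted p = 0.00497). The DNA topoisomerase Top2a, a dim probe set on all arrays, had -0.79 ± 0.16 (adjusted p = 0.00403), the mitotic kinase Plk1 -0.90 ± 0.19 (adjusted p = 0.00701) and Mcm3, part of the helicase that opens replication origins, -1.11 ± 0.25 (adjusted p = 0.00808). Cdk1, the kinase that starts mitosis, was named after its values were seen and had -1.29 ± 0.31 (adjusted p = 0.0115).

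Promoters of cell cycle genes are known for CCAAT boxes, bound by NF-Y, and for the CHR element TTTGAA, bound by the DREAM complex. Of the 15 called cell cycle genes, 14 had a promoter entry. CCAAT, on either strand, was found in 11 of the 14 (78.6%), against 38.7% of the 15275 genes, and TTTGAA in 4 of the 14 (28.6%), against 15.7%. Of the called macrophage markers 7 of 14 held CCAAT and 3 of 14 TTTGAA, of the lipid-associated genes 5 and 2 of 9, and of the lysosome genes 5 of 9 held each, so TTTGAA was found in a larger share of lysosome genes (55.6%) than of cell cycle genes. The promoters of Cdk1, at chr10:69352913-69353162 on the minus strand, and Top2a, at chr11:99024190-99024439 on the minus strand, hold 3 and 6 CCAAT boxes, shown in capitals on the gene's strand as CCAAT or its reverse complement.
Cdk1: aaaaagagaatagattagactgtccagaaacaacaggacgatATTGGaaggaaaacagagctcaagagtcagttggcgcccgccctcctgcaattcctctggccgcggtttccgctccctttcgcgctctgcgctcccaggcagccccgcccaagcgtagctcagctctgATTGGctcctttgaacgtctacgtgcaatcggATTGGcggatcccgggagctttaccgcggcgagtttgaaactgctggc
Top2a: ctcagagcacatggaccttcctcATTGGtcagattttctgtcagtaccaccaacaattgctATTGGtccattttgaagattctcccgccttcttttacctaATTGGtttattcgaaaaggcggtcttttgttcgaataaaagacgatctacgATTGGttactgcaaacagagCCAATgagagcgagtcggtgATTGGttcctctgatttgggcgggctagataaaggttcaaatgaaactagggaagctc
These counts describe the letters of the windows, and nothing was measured about binding.

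**Figure D3:**
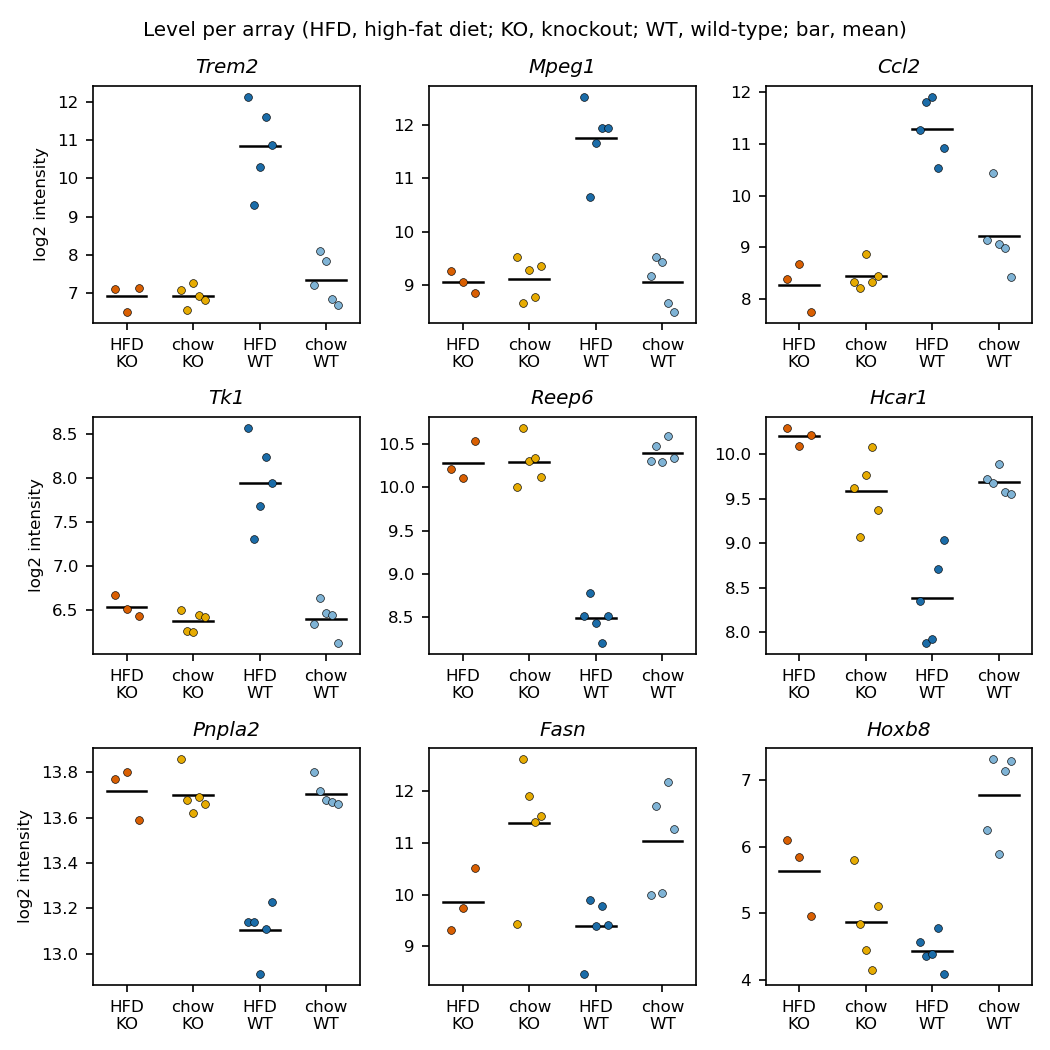
Log2 intensity of 9 genes on each of the 18 vehicle arrays, with groups in the order high-fat knockout, chow knockout, high-fat wild-type, chow wild-type, and a bar at each group's mean. For Trem2, Mpeg1, Ccl2 and Tk1 the high-fat wild-type arrays are above all others, for Reep6, Hcar1 and Pnpla2 below all others, for Fasn both high-fat groups have lower means than the chow groups, and for Hoxb8 the chow wild-type group is high.

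Of 9 lipolysis genes, 4 had a positive interaction and 0 a negative one, against 2.87% of all genes with a positive interaction (median 0.54). Hcar1, the lactate receptor that restrains lipolysis, read 10.30, 10.10 and 10.22 on the high-fat knockout arrays and 9.62, 9.07, 9.77, 10.08 and 9.38 on the chow knockout arrays, against 8.35, 7.88, 7.92, 8.71 and 9.04 on the high-fat wild-type arrays and 9.72, 9.68, 9.89, 9.58 and 9.55 on the chow wild-type arrays. High-fat wild-type arrays were the lowest and high-fat knockout arrays the highest of the 4 groups. The interaction was 1.93 ± 0.37 (adjusted p = 0.00311), of which the fall in wild-type fat, -1.31 ± 0.24, passed on its own and the knockout effect, 0.62 ± 0.28, did not.

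Pnpla2, the lipase ATGL that takes the first fatty acid off stored triglyceride, had tight replicates: 13.77, 13.80 and 13.59 in high-fat knockout fat and 13.62 to 13.86 in chow knockout fat, against 12.91 to 13.23 in high-fat wild-type fat and 13.66 to 13.80 in chow wild-type fat. Its interaction was 0.62 ± 0.14 (adjusted p = 0.00728), a fall to 0.659-fold with diet in wild-type fat against 1.01-fold in knockout fat. Pde3b, the phosphodiesterase through which insulin restrains lipolysis, had 0.88 ± 0.19 (adjusted p = 0.00678), and the glycerol channel Aqp7 had 1.29 ± 0.38 (adjusted p = 0.0354), a call lost in 7 of 18 fits without 1 array. Hormone-sensitive lipase (Lipe), named after its values were seen, had -0.20 and did not pass.

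Among 10 genes of adipocyte identity, Pck1, which makes the glycerol backbone of triglyceride in fat, and Aqp7 passed. Over all genes, 2.87% had a positive interaction and 3.46% a negative one. Pck1 read 12.64, 13.12 and 12.65 on the high-fat knockout arrays and 11.50 to 12.27 on the chow knockout arrays, against 10.35 to 11.15 on the high-fat wild-type arrays and 11.37 to 12.17 on the chow wild-type arrays. Its interaction was 1.86 ± 0.38 (adjusted p = 0.00453). The droplet coat gene Plin1 had 0.54 and Adipoq 0.31, both short of the threshold, and leptin (Lep), named after its values were seen, had -0.91 (adjusted p = 0.136). Of 12 adipokine and expansion genes only Nnat passed, at 1.00 ± 0.26. In triglyceride assembly, 2 of 14 genes were positive and 1 negative: Mogat1, which joins a fatty acid to monoacylglycerol, at 1.48 ± 0.33, Dgat1, which completes the triglyceride, at 0.53 ± 0.16, and the droplet protein Plin2 at -1.05 ± 0.29. Plin2 is also on the lipid-associated macrophage list. The calls of Dgat1 and Plin2 were lost in 10 and 4 of 18 fits without 1 array. Fatty acid oxidation had 3 positive calls among 18, Ppara, Ucp3 and Cpt2, lost in 2, 3 and 10 of those fits. Oxidative phosphorylation had 0 of 26 and a median of 0.16, with 8 at an unadjusted p under 0.05, which 3927 of all 19147 genes reached. The macrophage markers given above rose on the same high-fat wild-type arrays on which Pck1, Mogat1 and Dgat1 fell and Plin2 and Lep rose. What macrophages contributed to the lower level of adipocyte genes was not tested.

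The 17 genes of fatty acid synthesis had a negative median diet effect in both genotypes, -0.53 in knockouts and -0.77 in wild-type mice, where 9 passed as lower against 12.4% of all genes, and a median interaction of 0.17. Fasn, the fatty acid synthase, was named after its values were seen. It read 9.32, 9.74 and 10.51 on the high-fat knockout arrays and 9.43, 12.62, 11.90, 11.40 and 11.52 on the chow knockout arrays, against 8.46, 9.90, 9.40, 9.78 and 9.42 on the high-fat wild-type arrays and 10.00, 11.70, 10.02, 12.18 and 11.26 on the chow wild-type arrays. The chow arrays spread widely in both genotypes. Chow and high-fat arrays overlapped in knockouts, while in wild-type mice every high-fat array, 9.90 at most, was below the lowest chow array, at 10.00. The diet effect of -1.52 ± 0.54 in knockouts did not pass (adjusted p = 0.489) while that of -1.64 ± 0.47 in wild-type mice did (adjusted p = 0.00887). The interaction was 0.12 with a 95% interval of -1.33 to 1.58, so a difference of either sign remains within the error. The adipokine Sfrp5, a secreted inhibitor of Wnt signalling chosen in the same way, had diet effects of 2.12 in knockouts and 2.11 in wild-type mice and an interval of -1.57 to 1.61.

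The list's 2 calls were Acacb, the acetyl-CoA carboxylase of the mitochondrial surface, and Thrsp, an activator of lipogenesis. Thrsp had 0.88 ± 0.25 (adjusted p = 0.0291), a call lost in 5 of 18 fits without 1 array. Acacb had 2.21 ± 0.41 (adjusted p = 0.00286) and read 8.08, 8.28 and 6.93 on the high-fat knockout arrays and 6.83 to 7.29 on the chow knockout arrays, against 6.17 to 7.20 on the high-fat wild-type arrays and 7.47 to 8.50 on the chow wild-type arrays. Its diet effect in knockouts was 0.75 ± 0.31 (adjusted p = 0.585), and the genotype difference on chow, -1.05 ± 0.27, did not pass (adjusted p = 0.134). Cholesterol synthesis had 0 calls among 19, with 5 at an unadjusted p under 0.05, which 3927 of all 19147 genes reached. Its median interaction of -0.35 came with a median diet effect of -0.37 in knockouts and 0.09 in wild-type mice. Cyp51, a sterol demethylase, came nearest at -1.03 (adjusted p = 0.0671).

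**Figure D4:**
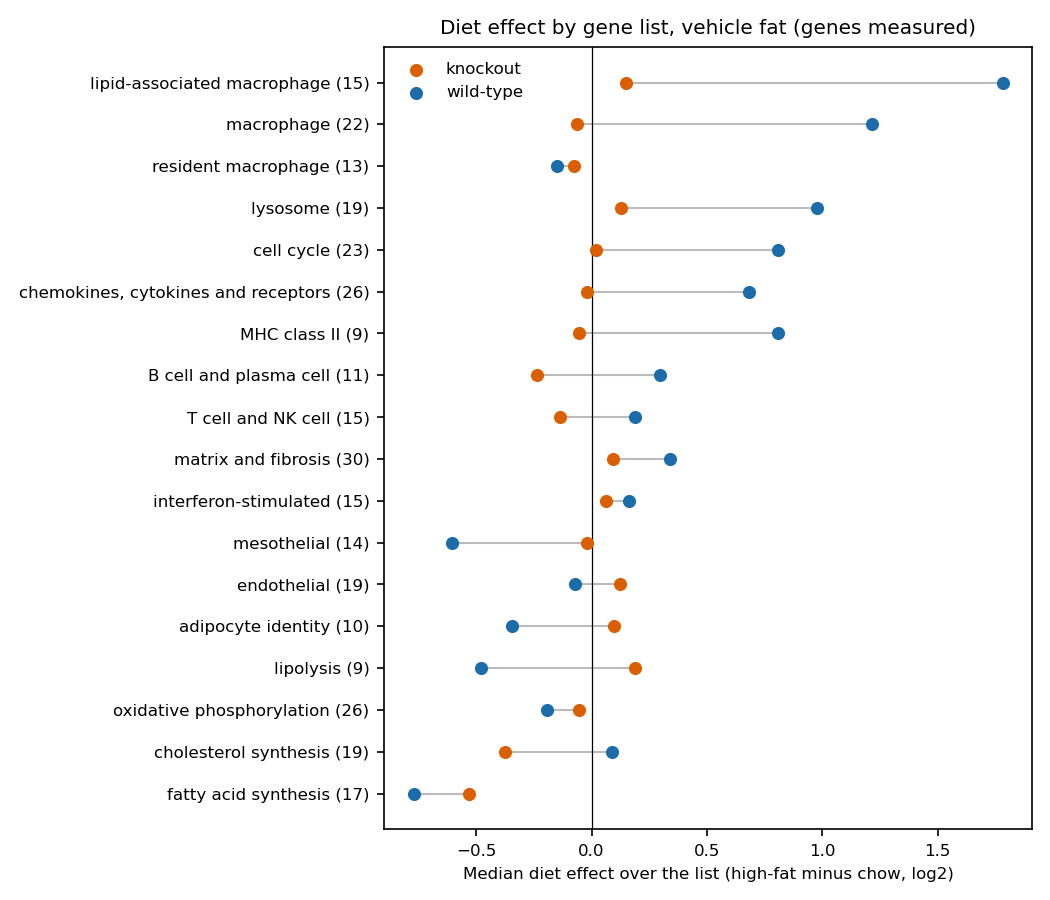
Median diet effect (high-fat minus chow, log2) over the measured genes of 18 lists in knockout fat and in wild-type fat, with the number of genes in each list. Wild-type medians range from -0.77 for fatty acid synthesis to 1.78 for lipid-associated macrophage genes, and knockout medians from -0.53 for fatty acid synthesis to 0.19 for lipolysis.

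Among stromal cell types, genes of the mesothelium, the cell layer that covers the depot, had 4 positive interactions of 14 and 0 negative ones (median 0.62). They were the membrane glycoprotein Gpm6a at 1.18 ± 0.30, the keratin Krt19 at 1.00, mesothelin (Msln) at 0.82 and the transcription factor Wt1 at 0.77 ± 0.24, which read 7.44, 7.68 and 8.02 in high-fat knockout fat and 7.73 to 8.26 in chow knockout fat, against 6.80 to 7.22 in high-fat wild-type fat and 7.72 to 8.29 in chow wild-type fat. Krt19, Msln and Wt1 were past the threshold with all arrays but lost the call in 11, 12 and 12 of the 18 fits that left out 1 array. Endothelial genes had 2 positive calls of 19, the receptor kinase Tie1 at 1.45 and the phosphatase Ptprb at 0.67, each lost in 9 of those fits. The median over the endothelial list was 0.12. Kdr at 0.59 and Robo4 at 0.56 did not pass. Nor did the endothelial markers Pecam1 at -0.87 and Cdh5 at -0.21, both named after their values were seen. Angiogenic factors had 2 of 12, Vegfb at 0.89 ± 0.20, a growth factor of fat vessels, and Fgf10 at 1.10 ± 0.27, a factor for preadipocytes. Matrix genes had 5 negative calls of 30: the protease genes Mmp12 at -3.71, Mmp3 at -1.55 and Mmp2 at -1.05, and Tgfbi at -0.73 and Col5a1, named after its value was seen, at -0.52. Mmp2, Col5a1 and Mmp3 lost their calls in 13, 12 and 4 of 18 fits without 1 array. The main fibrillar collagens Col1a1 and Col3a1, named after their values were seen, had -0.38 and -0.14 and did not pass. Progenitor genes had 0 calls among 11, with 3 at an unadjusted p under 0.05, which 3927 of all 19147 genes reached. The counts of these stromal lists stand beside 2.87% of all genes with a positive interaction and 3.46% with a negative one.

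In the other lists, too, counts stand beside the 6.34% of all genes with an interaction. In the endocannabinoid list 2 of 15 genes passed: Cnr2, the second cannabinoid receptor and one found on immune cells, at -1.49 ± 0.40 (adjusted p = 0.0226), and Daglb, which makes the endocannabinoid 2-arachidonoylglycerol, at -1.34 ± 0.38 (adjusted p = 0.0291). Daglb lost its call in 7 of 18 fits without 1 array and Cnr2 in 1. Cnr2 read 4.28, 4.28 and 3.92 in high-fat knockout fat and 4.18 to 4.39 in chow knockout fat, against 6.50, 4.42, 5.06, 5.83 and 5.52 in high-fat wild-type fat and 3.84 to 4.31 in chow wild-type fat. Immediate early genes had 4 calls of 15, with Jun at 1.66 ± 0.37 and Atf3, Egr2 and Junb at -2.48, -2.06 and -0.97. Jun had separate chow groups, at 7.71 to 8.92 on the chow knockout arrays and 8.99 to 10.46 on the chow wild-type arrays. Of 15 glucocorticoid and stress genes only Zbtb16 passed, at 1.77 ± 0.43, and of 16 clock genes only Cry2, at 0.65. In insulin signalling 3 of 12 passed: Pde3b and the hexokinase Hk2 (0.89) were positive and the signalling inhibitor Socs3 (-0.91) negative. Chaperone genes had 2 negative calls of 15, Sdf2l1 and Ddit3, and 1 gene passed in each of the lists for LXR targets (Apoc2, -0.61, of 9 genes), fatty acid uptake (Lmf1, 0.54, of 10), brown and beige adipocytes (Otop1, -3.40, of 12), skeletal muscle (Pvalb, -1.36, of 14) and exocrine pancreas (Cela1, -1.30, of 9). Of 10 neutrophil genes 2 passed, Mmp9 at 1.39 and S100a8 at -2.15. Among the genes of these lists, Ddit3, S100a8, Cela1, Lmf1 and Mmp9 lost their calls in 13, 13, 12, 11 and 9 of 18 fits without 1 array, Cry2 in 3, Junb in 2, and Hk2, Socs3, Sdf2l1 and Pvalb in 1 each. The lists for retinoid handling, smooth muscle, epididymis and testis, nerve and red blood cells had 0 calls, of 19, 9, 20, 5 and 2 genes, with 4, 1, 1, 0 and 0 at an unadjusted p under 0.05, which 3927 of all 19147 genes reached.

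The 12 most negative interactions over all genes ran from -5.02 to -3.03, and each of them had all high-fat wild-type arrays above the other 13. First was Tph2, the tryptophan hydroxylase that neurons use to make serotonin, at -5.02 ± 0.93 (adjusted p = 0.00277). It read 4.13, 4.24 and 3.82 on the high-fat knockout arrays and 3.84 to 4.48 on the chow knockout arrays, against 8.71, 7.38, 10.01, 10.05 and 9.68 on the high-fat wild-type arrays and 3.85 to 4.51 on the chow wild-type arrays. Next came Hmox1, the haem-degrading enzyme, at -4.54 ± 0.82, whose chow groups did not match: 4 of 5 chow knockout arrays read 7.34 to 7.84 and the chow wild-type arrays 5.11 to 6.53. The others were Atp6v0d2, the ubiquitin-like Ubd (-4.13), the G-protein regulator Rgs1 (-4.06), macrophage elastase Mmp12, Vsig8 (-3.56), Trem2, the proton channel Otop1, Zranb3 (-3.11, with -0.24 on its dimmer probe set), Il7r and the integrin Itgad (-3.03). Over all genes the 5 high-fat wild-type arrays were above the other 13 in 951 genes (4.97%) and below them in 880 (4.6%).

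The 12 most positive interactions ran from 3.43 to 1.91. In 6 of them all high-fat wild-type arrays were below the other 13, and in the other 6 they overlapped another group. Reep6, an endoplasmic reticulum protein, had the smallest p of all genes (1.91 ± 0.27, adjusted p = 0.00113) and read 10.21, 10.11 and 10.54 on the high-fat knockout arrays and 10.01 to 10.69 on the chow knockout arrays, against 8.51, 8.78, 8.43, 8.20 and 8.51 on the high-fat wild-type arrays and 10.29 to 10.60 on the chow wild-type arrays. Fam13a (2.40 ± 0.50, with 2.43 on its second probe set), Sema5a (1.96, with 0.63 on its second), Podn (1.91), Hcar1 and albumin (Alb, 2.68 ± 0.83) were the others with all high-fat wild-type arrays lowest. Of these, Podn also had separate chow groups, at 9.50 to 9.80 on the chow knockout arrays and 10.19 to 11.08 on the chow wild-type arrays. Alb ran from 5.42 to 8.49 on the chow knockout arrays and from 5.47 to 8.34 on the chow wild-type arrays, and its call was lost in 12 of 18 fits without 1 array.

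Among those that overlapped, Hoxb8, a patterning gene that marks posterior position, read 6.10, 5.85 and 4.96 on the high-fat knockout arrays and 5.80, 4.84, 4.45, 4.15 and 5.11 on the chow knockout arrays, against 4.57, 4.36, 4.38, 4.78 and 4.09 on the high-fat wild-type arrays and 6.24, 7.32, 5.88, 7.14 and 7.29 on the chow wild-type arrays. Chow wild-type arrays were thus the highest group, and knockouts on chow were lower by 1.90 ± 0.35 log2 units (adjusted p = 0.0226). Its interaction was 3.11 ± 0.53 (adjusted p = 0.00203). Chtf8, part of a clamp loader for DNA replication, had 1.98 ± 0.38 with a chow difference of -1.32 ± 0.25 (adjusted p = 0.0226), and the synaptic gene Clstn2 had 1.91 with a chow difference of -0.82 that did not pass. Acacb is described above.

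Rab5c, a GTPase of early endosomes, and the motor gene Kif1c scattered within groups. Rab5c read 11.17, 11.19 and 8.09 on the high-fat knockout arrays and 9.20, 8.13, 7.68, 8.06 and 8.11 on the chow knockout arrays, against 8.96, 9.35, 9.75, 11.73 and 8.05 on the high-fat wild-type arrays and 10.68 to 11.48 on the chow wild-type arrays. High-fat knockout array 44 and high-fat wild-type array 5 stood apart from their groups, and in Kif1c they did so again, at 4.78 against 6.39 and 6.72 in high-fat knockouts and at 6.70 against 4.35 to 4.91 in high-fat wild-type mice. Tie1 and Acacb, described above, shared this. Tie1 read 7.02 on array 44 against 8.54 and 8.38, and 8.52 on array 5 against 7.40 to 7.88. Acacb read 6.93 on array 44 against 8.08 and 8.28, and 7.20 on array 5 against 6.17 to 6.57. The interactions of Rab5c, 3.43 ± 1.02, and Kif1c, 2.41 ± 0.73, were lost in 9 and 14 of 18 fits without 1 array. Among the 11 genes that differed between genotypes on chow were Il17ra, the interleukin-17 receptor, with an interaction of -1.17 ± 0.22, and Raly; the chow arrays enter both contrasts, so the 2 sets of calls are not independent.

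The same contrast was computed in the 18 fat arrays of mice that received AM251, a CB1 inverse agonist, at 10 mg per kg on 2 days, which share no array with the vehicle groups but were taken from the same fit and its spread. There 45 genes passed (0.235%), 33 positive and 12 negative. Of the 1213 genes chosen in vehicle fat, 1068 (88.0%) had the same sign in AM251 fat, against 58.0% of all genes, and 18 passed with the same sign. Among genes with a negative interaction under vehicle the share was 90.8% and the median interaction under AM251 was -0.42, against -0.96 under vehicle, and among those with a positive one it was 84.7% and 0.27, against 0.76. Genes picked for size in 1 set of arrays tend to read smaller in another, so the smaller medians are no test of a drug effect. The difference itself, tested as the vehicle minus the AM251 interaction, passed in 2 genes (0.0104%), with 1762 at an unadjusted p under 0.05. These were Acacb, whose interaction was -1.16 under AM251 and 2.21 under vehicle, and the matrix protein gene Mxra8, at 0.83 under AM251 and -0.33 under vehicle.

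By group, the macrophage list had a median interaction of -0.50 under AM251, lipid-associated macrophage genes -1.04, lysosome genes -0.59, cell cycle genes -0.54 and mesothelial genes 0.60. Lipolysis genes had a median of 0.06 there. Hcar1 was -0.11 ± 0.37 and Fam13a -0.18 ± 0.50 under AM251, while Trem2 was -1.97 ± 0.72 and Reep6 0.82 ± 0.27, none of them past the threshold. In knockout AM251 fat the diet effect passed in 155 genes (0.81%) and in wild-type AM251 fat in 1828 (9.55%).

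**Figure D5:**
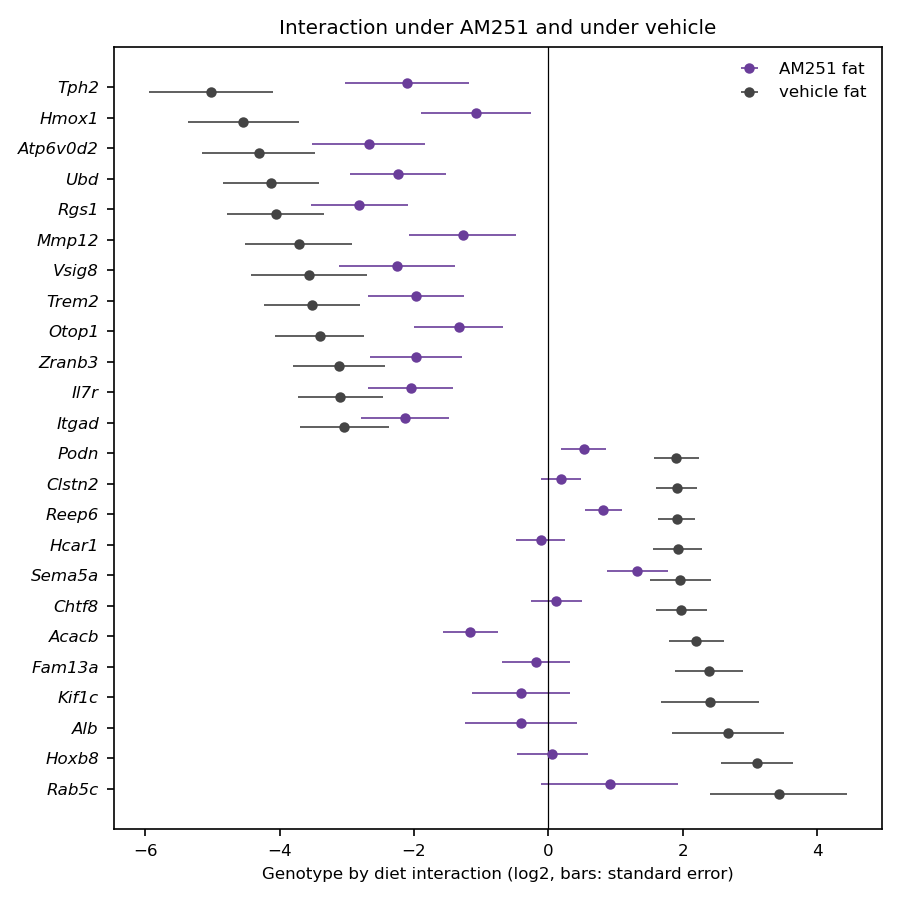
Interaction (log2, with standard error bars) of the 24 named genes with the most negative and most positive values, in AM251 fat and in vehicle fat. All 12 negative genes keep their sign under AM251 at smaller sizes, while 5 of the 12 positive genes lie below 0.

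In vehicle liver the same contrast passed in 799 genes (4.17%), 544 positive and 255 negative, and the diet effect in 3252 genes of knockouts (17%) and 323 of wild-type mice (1.69%). Those liver counts rest in part on chow knockout arrays 15 and 17, without which the interaction passed in 198 genes and the knockout diet effect in 1428. The genes that led in fat were not called there: Trem2 had 0.01, Tph2 -0.01 and Reep6 -0.11 in liver, and the difference between tissues was not tested. Mogat1 passed in both tissues with opposite signs, 1.48 in fat and -2.20 in liver (adjusted p = 0.00626).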

How the data were processed

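Fat and liver RNA was hybridised to 1-colour arrays, 1 mouse sample per array. The authors deposited linear intensity values made with RMA, per the submitters' processing notes; the RMA version is not given in the sources used here, nor is whether both tissues were normalized together. The deposited intensity was taken to log2 with no further normalization. Of 38385 probe sets, 24478 had 1 gene symbol in the platform annotation, 65 had several and 13842 were not listed; the 13907 without 1 symbol, 265 of them with an interaction, were left out. The probe set with the highest mean stood for each of 19147 genes (3958 had more than 1), and symbols were updated through Entrez IDs in the RefSeq table. Second probe sets of named genes did not always follow the one used. On the set not used, the interaction was 0.48 for Aqp7, 0.35 for Hk2, 0.20 for Ptprb and -0.23 for Ms4a1. It was -0.22 for Cdk1, -0.24 for H2-Ob and -0.38 for Il2rb. None of these reached an unadjusted p under 0.05 in limma. Atp6v0d2 and Il1rn read alike on both sets, at -4.38 and -2.22 on the second. No pair of arrays shared more than a fraction of 0.000391 of its values.

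The 36 fat arrays of 8 groups were fitted together with limma 3.58.1 in R 4.3.3 (lmFit, eBayes, 28 residual degrees of freedom), with Benjamini-Hochberg adjustment over all genes and a threshold of 0.05, two-sided; liver was fitted separately. The fit was tested on simulated data. Genes named were the 12 most negative and 12 most positive called, up to 4 members of each list with the smallest interaction p, and Cnr1; Pth1r, Mxra8, Il17ra, Raly and those so marked were named after their values were seen. The contrast, the lists and the alternatives were chosen with earlier results of these data known. Alternatives changed the arrays in the fit, the probe set rule, normalization, a dim filter, an added 16, the variance prior, array weights and a replicate block.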

Additional observations from a re-analysis of the deposited data

Results flagged for a closer look

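3 counts describe a difference between groups that was itself tested: the 1213 genes whose diet effect differed between knockout and wild-type vehicle fat, the 799 in vehicle liver, and the 2 genes whose interaction differed between vehicle and AM251 fat.

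In 15 of 366 groups of 5 arrays (122 named genes in 3 groups; 4.1%), 1 array stood apart from the other 4, and chance flags about 1 in 20 groups. On chow knockout arrays, Pck1 was low at 11.50 on array 16 (12.12 to 12.27 on the others), as was Ctsk at 7.66 (8.04 to 8.14). Array 15 was low for Thrsp at 13.01 (13.80 to 14.03) and for Cnr1 at 6.15 (7.04 to 7.17), and array 17 for Jun at 7.71 (8.67 to 8.92). On high-fat wild-type arrays, 4 of the 15 were array 3: H2-DMb1 at 9.05 (9.80 to 9.94), H2-Eb1 at 12.66 (12.95 to 13.03) and Apoc2 at 7.43 (7.73 to 7.80) were low there and Hk2 was high at 9.77 (9.13 to 9.28). Array 5 was high for Kif1c at 6.70 (4.35 to 4.91) and low for Socs3 at 6.29 (6.91 to 6.94), array 4 low for Lmf1 at 7.84 (8.06 to 8.14) and array 1 high for Tnf at 6.34 (5.66 to 5.84). On chow wild-type arrays, Cyp51 was high at 8.64 on array 2 (7.22 to 7.59) and Pde3b low at 6.13 on array 5 (6.46 to 6.60).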

How the results depend on the processing

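The 1213 interactions in vehicle fat became 1870 with array weights and 451 to 1811 when 3 of the 5 high-fat wild-type arrays were kept, an alternative added after seeing the data. Leaving out 1 array gave 713 (without high-fat knockout array 44) to 1688 (without high-fat wild-type array 3). With only the vehicle groups, the mean of all probe sets, quantile normalization, the dim filter (12822 genes kept), an added 16 or a trended robust prior it stayed within 1.5 times, at 1194 to 1334. All 110 named genes with an interaction kept their direction under every alternative run; 68 also kept the call, and the rest lost it in at least 1 fit, 32 of them without high-fat knockout array 44. The diet effect in knockouts passed in 62 genes with array weights. It passed in 0 with an added 16 (1353 genes at an unadjusted p under 0.05 in the limma fit without it). With only the vehicle groups it passed in 3, with the replicate block in 3, and without 1 array in 0 to 11. The knockout difference on chow passed in 40 genes with array weights, 17 with the mean of all probe sets and 2 to 34 without 1 array, and that on the high-fat diet in 1895 to 3270 without 1 array. The AM251 interaction passed in 194 genes with array weights and 4 to 150 without 1 array, and its difference from vehicle in 0 to 6. The wild-type diet count stayed at 4037 to 4828 without 1 array. In liver the 799 interactions became 161 with only the contrast's groups, 198 without chow knockout arrays 15 and 17 (added after seeing the data) and 466 to 1195 without 1 array, and quantile normalization moved the positive share to 51.1%, against 68.1%. The cause of these shifts was not tested, and leaving arrays out also makes the number of arrays smaller.

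The labels of the wild-type groups share replicate numbers 1, 3, 4 and 5. Same-numbered arrays did not deviate together (correlations of 0.0572, -0.128, -0.083 and 0.0402), so no pairing by number showed in the values. So few pairs cannot exclude one. With the replicate block the interaction passed in 1274 genes, 1040 of them among the 1213. Precision is limited by the 3 high-fat knockout arrays and, for dim probe sets such as those near log2 5, by signal over background.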
